A study of Mus musculus with 6 samples.

Results

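The cytosolic ribosomal protein genes were taken from the deposited count table by symbol: every Rpl or Rps symbol that ends in a number or in a number with a or x, together with Rpsa, Rplp0, Rplp1 and Rplp2, and no pseudogene symbols. This gave 76 of 48587 genes, 46 of the large (60S) subunit and 30 of the small (40S) subunit. A few ribosomal proteins have other kinds of symbol, Rack1 and Rps3a1 among them, and these are given separately. The samples each held about 1000 microglia sorted by FACS from mice of strain C57BL/6, aged 42 days after birth. There were 3 wild-type samples and 3 of genotype Lyl1 KO, and the labels give no further allele or agent. Lyl1 encodes a basic helix-loop-helix factor that acts in blood-forming cells. PolyA RNA was amplified as full-length cDNA and read from 1 end over 50 cycles. The labels do not say that the samples came from separate animals, so the p-values measure how far these samples spread, which may be technical.

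Ribosomal proteins clothe the ribosomal RNAs of the subunits that translate every cytosolic mRNA. The small subunit decodes the mRNA, and the large subunit joins the amino acids and passes the growing chain through an exit tunnel. Their mRNAs are short, are made in near-equal amounts in growing cells, and often begin with a 5′ terminal oligopyrimidine tract, or TOP, through which mTOR and Larp1 regulate their translation. Mammalian genomes also hold many processed pseudogenes of these genes, copies of their mRNAs without introns, which can be identical to the parent over the length of a short read.

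How far a 50-base read can tell each gene from its copies was measured on the GENCODE M21 transcripts (GRCm38). Every 50-base window of a member's principal transcript was looked up in the transcripts of all genes elsewhere in the genome, on both strands. Of the 76 members 75 shared at least 1 window with another gene, always including an annotated pseudogene, and the median member shared windows with 10 other genes. Rpl7a, a large-subunit protein, shared windows with 123 other genes, 120 of them annotated pseudogenes. Within the coding sequence the median member had 8.57% of windows found nowhere else, and 29 members had none. Among 74 mitochondrial ribosomal protein genes, which serve the separate ribosome of the mitochondrion, the median was 100%.

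The first 50 coding bases of 6 members show the contrast. The first 3 have high counted levels per kb (225, 156 and 147 CPM) and at least 50% of coding windows to themselves, and the last 3 are those with the lowest level among members with none. Capitals mark the start codon. All were read from GENCODE M21 transcripts.
Rps9: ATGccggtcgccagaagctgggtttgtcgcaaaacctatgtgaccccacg
Rpl8: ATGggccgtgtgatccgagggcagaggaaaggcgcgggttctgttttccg
Rpl4: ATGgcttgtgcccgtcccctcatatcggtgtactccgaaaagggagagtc
Rpl23a: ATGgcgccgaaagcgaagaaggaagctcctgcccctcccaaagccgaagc
Rps12: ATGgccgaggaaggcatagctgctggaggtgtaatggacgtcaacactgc
Rpl31: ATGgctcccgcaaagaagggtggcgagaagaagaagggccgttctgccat
The windows of Rps9 (chromosome 7, 3703993 to 3706897, plus strand), Rpl8 (chromosome 15, 76904078 to 76906314, plus strand) and Rpl4 (chromosome 9, 64173375 to 64178666, plus strand) occurred in 0 other genes. That of Rpl23a (chromosome 11, 78180932 to 78183584, minus strand) occurred identically in 7 other genes, that of Rps12 (chromosome 10, 23785183 to 23787275, minus strand) in 9 and that of Rpl31 (chromosome 1, 39367842 to 39371911, plus strand) in 6.

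Counted levels followed this property across members. Levels are TMM-scaled CPM, read counts scaled to a common library total, and are compared between genes only per kb of transcript. The 29 members without a coding window of their own had a median of 6.48 CPM per kb over all samples. The 27 members with some but under 20% had 26.3, the 9 members with 20 to 50% had 66.7, and the 11 members with 50% or more had 117 CPM per kb. Across the 76 members Spearman's rho between the coding share and the level per kb was 0.67. It was 0.33 with windows of whole transcripts, and the reason for the lower value was not tested. These values run over genes of the same libraries and are a description. Single members departed from this order in both directions. Rpl41, with 26 coding windows in all, had none of its own and 139 CPM per kb. Rpl13a, with 61.3% of coding windows its own, was at 22.0 CPM per kb, and Rps24, with 21.7%, was at 10.9 CPM per kb. The transcript used for Rps24 has 1613 bases, 399 of them coding, and a level per kb depends on the transcript chosen. The sources used here do not say how reads that match several places were counted, and the part of that step in the levels was not tested.

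**Figure D1:**
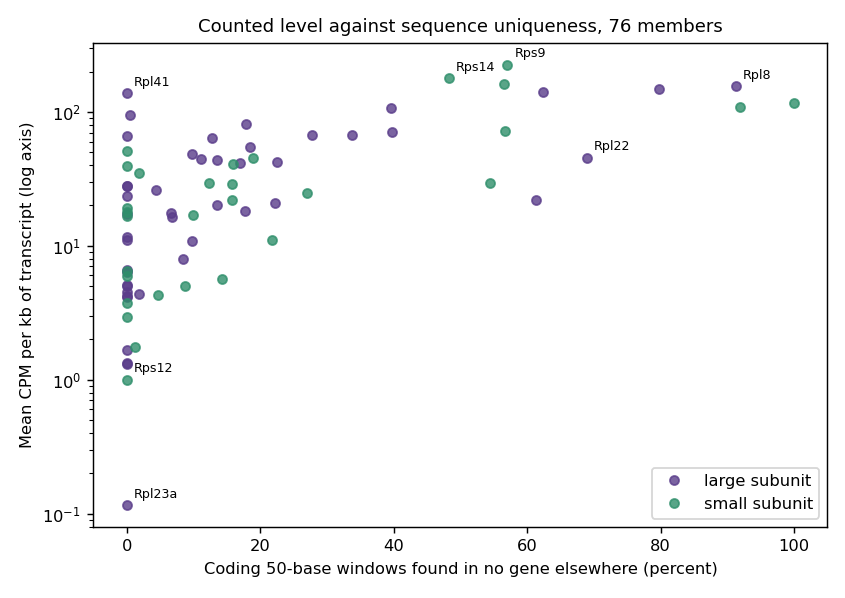
Mean TMM-scaled CPM per kb of transcript over all 6 samples (log axis) against the percent of coding 50-base windows found in no gene elsewhere, 1 point per member. The 29 members at 0 reach from 0.116 (Rpl23a) to 139 (Rpl41) CPM per kb, while the 11 members at 50% or more lie between 22.0 and 225 CPM per kb.

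Reads of the members together were 32655 of 12753945, 65198 of 27378614 and 51762 of 19632530 gene reads in wild-type samples 1 to 3. In knockout samples 1 to 3 they were 57430 of 22259533, 39660 of 19205948 and 63719 of 27305558. That is 0.256%, 0.238% and 0.264% in wild type, with 95% Wilson intervals of 0.253 to 0.259, 0.236 to 0.240 and 0.261 to 0.266. In knockout it is 0.258%, 0.206% and 0.233%, with intervals of 0.256 to 0.260, 0.204 to 0.209 and 0.232 to 0.235. These intervals take each read as independent and do not cover the spread between samples. Since PCR copies of a molecule are counted separately, they are too narrow even for counting error. The 76 members summed to 2646 ± 211 CPM in wild type and to 2253 ± 259 CPM in knockout (SD, n = 3 each). The genotypes overlapped in these sums, with knockout sample 1 above wild-type sample 3. The sums are TMM-scaled, which the shares are not, and their mean fell further in proportion than the mean share. In such bulk samples fewer cells of a type and less of an mRNA per cell cannot be told apart.

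The genotypes overlapped in this share. Its mean was 0.253% ± 0.0131 in wild type and 0.233% ± 0.0258 in knockout (SD, n = 3 each), a difference of -0.0200 percentage points. Knockout sample 2 was the lowest, and knockout sample 1 lay above 2 of the wild-type samples. Leaving out knockout sample 2 made the difference -0.00693, and leaving out knockout sample 1 made it -0.0327. The mitochondrial ribosomal protein genes, measured in the same way, took 0.319%, 0.289% and 0.285% in wild type and 0.246%, 0.251% and 0.245% in knockout. Their wild-type samples were all above their knockout samples. Whether the 2 families differ in their response was not tested.

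The question of balance between subunits was put to each sample as the reads of large-subunit members over those of small-subunit members. The ratio was 1.21, 1.37 and 1.44 in wild-type samples 1 to 3 and 1.75, 1.37 and 1.27 in knockout samples 1 to 3. Knockout sample 1 was the highest of all, and the other two knockout samples lay inside the wild-type range. On the log2 scale the mean was 0.42 ± 0.127 in wild type and 0.54 ± 0.240 in knockout (SD, n = 3 each), a difference of 0.12, which is smaller than the knockout SD. Without knockout sample 1 the difference was -0.02, without wild-type sample 1 it was 0.04 and without knockout sample 3 it was 0.21. As the difference between the subunits' median members, on log2(CPM + 1), it was -0.08, so its sign depended on the summary. Per unique window it was 0.34. Rpl4, which lines the exit tunnel, was the member with the most reads in wild-type sample 3 and in all 3 knockout samples, and Rps3, at the mRNA entry of the small subunit, in wild-type samples 1 and 2. The 5 members with the most reads made up 33.2% to 38.3% of member reads in each sample.

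**Figure D2:**
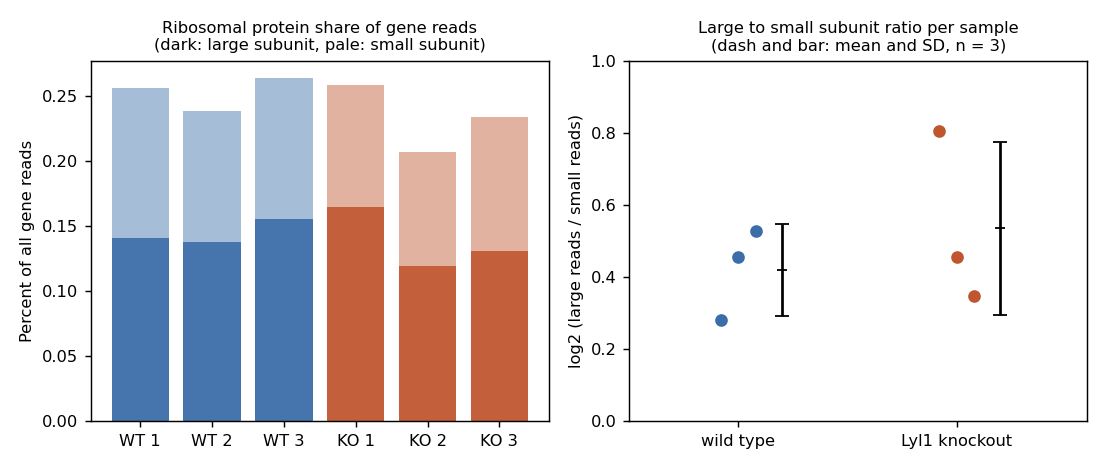
Left, member reads as percent of all gene reads per sample, with the large subunit dark and the small subunit pale. Right, log2 ratio of large to small subunit reads per sample, with mean and SD beside the 3 points of each genotype. Shares run from 0.206% to 0.264% and overlap between genotypes, and knockout sample 1 has the highest ratio at 0.81.

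The targeted gene was checked first. Lyl1 was at 60.2, 55.6 and 40.0 CPM in wild type, against 9.03, 12.0 and 14.3 CPM in knockout, lower in every knockout sample but not absent. Over all genes the edgeR quasi-likelihood test called 0 of 10394 at an adjusted p under 0.05, Lyl1 included (log2 fold change -2.14, SE 0.98, adjusted p = 0.9999). Between 12827 and 15652 genes were detected per sample, and 3 of the samples (wild type 1 and 2, knockout 1) had 13085 or fewer. Markers that define microglia were present throughout and summed to 53594 to 56553 CPM in wild type and 49955 to 54873 CPM in knockout, with P2ry12 at 6729 ± 330 and 7825 ± 944 CPM in wild type and knockout. Markers of neurons, astrocytes, lymphocytes, neutrophils and monocytes summed to under 7 CPM per list in each sample. Those of red cells summed to 227 CPM in knockout sample 1, to 65.2 CPM in knockout sample 2 and to no more than 1.23 CPM elsewhere. Those of oligodendrocytes summed to 47.4 to 379 CPM in wild type and 109 to 215 CPM in knockout. Endothelial markers summed to 28.5 to 180 CPM in wild type and 27.2 to 61.6 CPM in knockout. Markers of border-associated macrophages summed to 0.437 to 95.8 CPM in wild type and 0.254 to 10.2 CPM in knockout. The part of these cells in the levels of ribosomal protein mRNA, which every cell makes, was not tested.

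No member was called different between the genotypes. Of the 76 members 74 passed the filter on low counts, 45 of the large and 29 of the small subunit, and Rpl23a and Rps12 did not. EdgeR called 0 of the 74 at an adjusted p under 0.05, against a background of 0% of all genes tested. At an unadjusted p under 0.05 it also gave 0 members, against a background of 2.84% (1.16% higher and 1.67% lower). Without the filter edgeR called 0 of the 76, against 0.0364%. DESeq2 called 0 members, against 0.523% of the genes with an adjusted p, and limma-voom had 0 members at an unadjusted p under 0.05, against 6.38%. Of the 74 members 43 had a lower and 31 a higher fitted level in knockout, 58.1% lower beside 51.3% of all genes tested. The median log2 fold change was -0.22, beside -0.03 for all genes tested, and it was -0.22 for both subunits. The subunit medians did not stay alike under other settings: they were -0.30 (large) and 0.06 (small) without wild-type sample 3, and 0.12 and -0.11 among members at a mean of 50 CPM or more. With upper-quartile scaling the medians of members and of all genes were -0.15 and 0.09, and with limma-voom -0.10 and 0.20. Log2 fold changes of members ran from -2.80 for Rps13 to 3.10 for Rps6.

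The counts of higher and lower members differed with the uniqueness of the members. Among the 27 tested members without a coding window of their own 17 were higher and 10 lower (median log2 fold change 0.31). Among the 27 with under 20% there were 10 higher and 17 lower (median -0.38), among the 9 with 20 to 50% 1 higher and 8 lower (median -0.51), and among the 11 with more 3 higher and 8 lower (median -0.29). This split was looked at after the values were seen and was not tested. The group without a unique coding window was also the one with the widest spread. Its median CV (SD over mean) was 88.1% among wild-type and 63.3% among knockout samples. The median CV was 41.7% and 28.7% with under 20%, 25.4% and 17.5% with 20 to 50%, and 37.8% and 25.6% with 50% or more. The group with the widest spread also had the lowest median level per kb, and 17 of its 29 members had 10 reads or fewer in a sample.

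**Figure D3:**
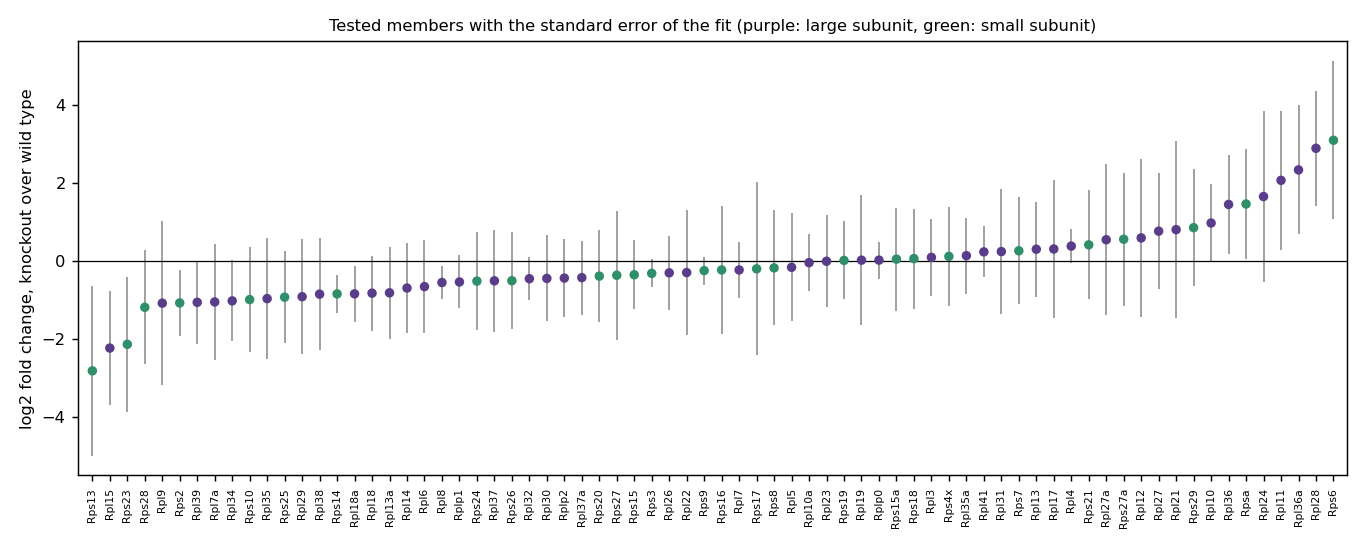
Log2 fold change, knockout over wild type, of 72 of the 74 tested members in rising order, with the standard error of the fit, large subunit in purple and small subunit in green. Small-subunit members reach from -2.80 to 3.10 and large-subunit members from -2.22 to 2.90, and 42 of the 72 lie below 0.

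Values of the members with the highest CPM, a ranking that is not per length, show the spread behind these tests. Rpl4, a gene of 10 exons, was at 151, 119 and 316 CPM in wild type, against 325, 195 and 249 CPM in knockout. Its wild-type sample 3 was near the knockout values, and the genotypes overlapped (log2 fold change 0.39, SE 0.44). Rpl8, a core protein of the large subunit, was at 127, 227 and 119 CPM in wild type, against 122, 109 and 93.0 CPM in knockout. Wild-type sample 2 stood above the rest (log2 fold change -0.54, SE 0.42). Rpl32 was at 63.0, 107 and 81.2 CPM in wild type, against 58.9, 63.9 and 61.8 CPM in knockout, with close knockout samples that touched the lowest wild-type sample (log2 fold change -0.45, SE 0.55). Rpl10a was at 137, 39.8 and 33.8 CPM in wild type, against 78.7, 72.6 and 54.3 CPM in knockout. Its wild-type samples reached both above and below all knockout samples, and without wild-type sample 1 its log2 fold change went from -0.03 to 0.91. Rpl41, the shortest ribosomal protein, was at 60.5, 43.8 and 62.5 CPM in wild type, against 95.1, 50.8 and 51.4 CPM in knockout, where sample 1 was the highest of the 6.

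Among the small-subunit members with high CPM Rps3 (chromosome 7, 99477896 to 99483738, minus strand) was at 274, 230 and 183 CPM in wild type, against 241, 129 and 186 CPM in knockout. Rps9, a protein of decoding accuracy, was at 183, 221 and 145 CPM in wild type, against 161, 119 and 185 CPM in knockout. For both genes the genotypes overlapped, with log2 fold changes of -0.31 (SE 0.36) and -0.24 (SE 0.36). Rps14, on the platform of the small subunit, was at 211, 100 and 98.8 CPM in wild type, against 88.0, 72.9 and 69.1 CPM in knockout. Each knockout sample was below each wild-type sample, with wild-type sample 1 far above the others (log2 fold change -0.83, SE 0.49, unadjusted p = 0.132 and adjusted p = 0.9999 by edgeR). Without that sample its log2 fold change was -0.36. Rps2, at the mRNA entry, was at 64.3, 63.4 and 38.2 CPM in wild type, against 16.7, 25.2 and 37.4 CPM in knockout, apart by the margin between wild-type sample 3 and knockout sample 3 (log2 fold change -1.06, SE 0.85). Rps2 shared windows with 71 other genes, all of them annotated pseudogenes.

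**Figure D4:**
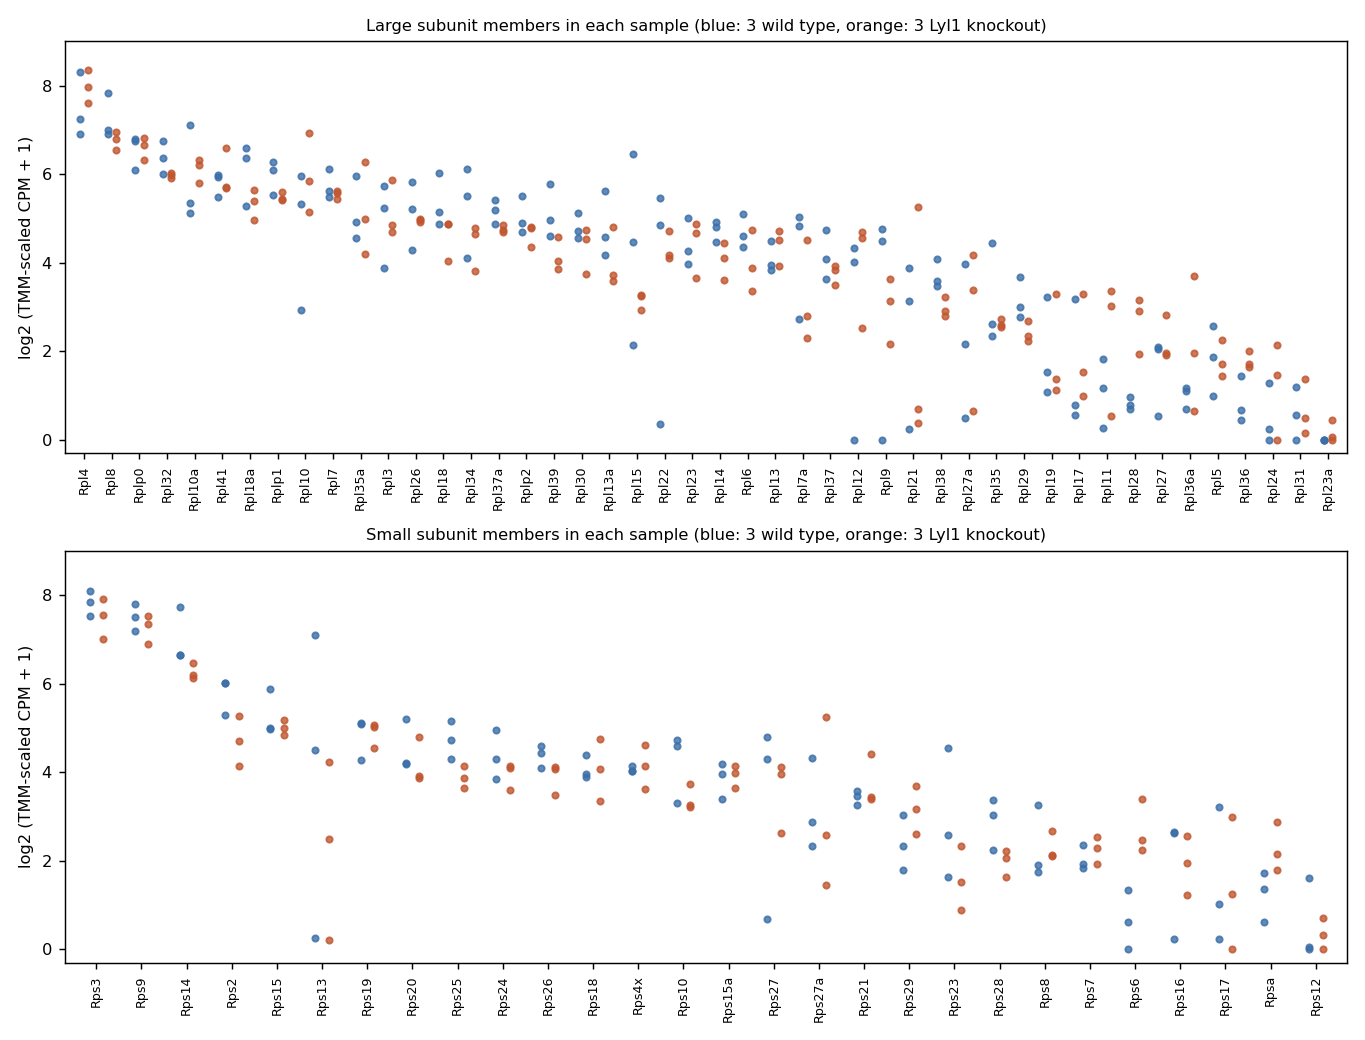
Level of 74 of the 76 members in each sample as log2(TMM-scaled CPM + 1), ordered by the mean over all samples, large subunit above and small subunit below, with wild type in blue and knockout in orange. Points of the members with the highest CPM lie close together, while single samples of Rps13, Rpl22, Rpl12 and Rpl9 fall to 0 or near it.

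The genotypes did not overlap for 13 of the 74 tested members, 17.6%, against a background of 11.2% of all genes tested. Of these 9 were lower in knockout (background 5.19%) and 4 higher (background 5.97%). The lower ones were Rpl14, Rpl29, Rpl37a, Rpl38, Rpl39, Rps2, Rps14, Rps25 and Rps28. Beside Rps14 and Rps2 they include Rps25, a small-subunit protein known for its part in initiation at viral internal entry sites. Rps25 was at 34.8, 25.5 and 18.7 CPM in wild type, against 13.6, 11.5 and 16.7 CPM in knockout. Wild-type sample 3 was the nearest to knockout.

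The margin was narrow in most of the others. Rpl14 was at 29.4, 26.9 and 20.99 CPM in wild type, against 11.3, 16.1 and 20.7 CPM in knockout. Rpl37a, a zinc-finger protein of the large subunit, was at 35.3, 41.4 and 28.3 CPM, against 25.0, 25.9 and 27.9 CPM. For both genes wild-type sample 3 and knockout sample 3 nearly met. Rpl29, with windows in 84 other genes, was at 6.96, 11.8 and 5.87 CPM, against 3.65, 4.07 and 5.43 CPM. Rpl38, known for its part in the patterning of the mouse skeleton, was at 15.9, 10.2 and 11.1 CPM, against 6.47, 8.33 and 5.91 CPM. Rps28 was at 3.70, 9.30 and 7.15 CPM, against 3.17, 2.08 and 3.65 CPM. Standard errors of these 5 genes ran from 0.95 to 1.47 on the log2 scale, each larger than the log2 fold change.

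The higher ones were Rps6, Rpl28, Rpl36 and Rpsa, all at a mean under 2 CPM in wild type. Rps6 and Rpl28 had no coding window of their own, and Rpl36 and Rpsa had 1.88% and 1.20%. Rps6, the small-subunit protein phosphorylated downstream of mTOR (chromosome 4, 86854660 to 86857412, minus strand), had 6, 0 and 32 wild-type reads, against 104, 186 and 108 knockout reads. Its mean level was 0.685 ± 0.775 and 5.93 ± 3.08 CPM (SD, n = 3 each), with a log2 fold change of 3.10, an SE of 2.03 and an unadjusted p of 0.166 by edgeR (adjusted p = 0.9999). Rpl28 had 7, 24 and 15 reads against 178, 128 and 81, or 0.762 ± 0.173 CPM against 5.72 ± 2.60 CPM. Its unadjusted p, 0.0870 by edgeR (adjusted p = 0.9999), was the smallest of all members. Rpl36 had 4, 15 and 36 reads in wild type, against 48, 59 and 65 in knockout, and Rpsa, also known as a laminin receptor, had 6, 58 and 33 against 145, 48 and 99. Rpsa was apart in CPM but not in reads, where knockout sample 2 lay below wild-type sample 2. An exon overlaps another gene model on the opposite strand in 18 of the 76 members, and since the library does not mark strand, reads of such an overlap cannot be told apart. Of the members described here this holds for Rpl28 (with Ube2s), Rps28 (Kank3), Rps25 (Ccdc84 and Trappc4), Rps2 (Snhg9), Rpl32 (Cand2), Rpl15 (Nkiras1), Rpl5 (Fam69a), Rpl12 (Lrsam1), Rpl23a (Tlcd1), Rpl31 (Tbc1d8) and Rpl10a.

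Of the 76 members 20 had 10 reads or fewer in 1 or more samples, 13 of the large and 7 of the small subunit, and 17 of these 20 had no coding window of their own. Among tested genes this held for 18 of 74 members, beside 49.2% of all genes tested. It also held for 22 of 74 mitochondrial ribosomal protein genes, 20 of which have 75% or more of their transcript windows to themselves. Wild-type sample 1, the library with the fewest reads, held 15 such members and wild-type sample 2 and knockout sample 2 held 8 each. The other samples held 3, 3 and 1. Rps13 (chromosome 7, 116331505 to 116334195, minus strand) had 1551, 5 and 452 wild-type reads, against 105, 3 and 514 knockout reads, an 897-fold range of its CPM. The high and low samples fell in both genotypes, and its log2 fold change of -2.80 (SE 2.17) was -0.52 without wild-type sample 1 and -4.46 without knockout sample 3. Rpl22, a large-subunit protein also known for its role in lymphocyte development, was at 42.8, 0.278 and 28.0 CPM in wild type, against 25.1, 16.2 and 17.0 CPM in knockout. Wild-type sample 2 alone was near 0, although 69.0% of the coding windows of Rpl22 are unique. Rpl12, of the stalk base, had 0 reads in wild-type sample 1 and 482 and 318 in the others, against 565, 94 and 645 in knockout. With each read taken as independent, a count of 0 allows up to 3 reads, which in wild-type sample 1 is 0.264 CPM. Since PCR copies of a molecule are counted separately, this limit can be too low. Rpl23a had 7 reads in knockout sample 2, 1 in knockout sample 3 and 0 elsewhere, and Rps12 had 0, 1 and 43 wild-type reads, against 0, 5 and 18 knockout reads.

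Structural groups of members held both directions. The P stalk, which recruits the elongation factors, is made of Rplp0, Rplp1 and Rplp2. Rplp0 was at 67.4, 110 and 107 CPM in wild type, against 112, 99.8 and 78.7 CPM in knockout, and its log2 fold change of 0.03 (SE 0.48) was -0.01 with RLE scaling. Rplp1 was at 76.5, 67.2 and 45.3 against 47.3, 42.3 and 41.5 CPM, and Rplp2 at 24.9, 44.2 and 28.8 against 19.4, 26.3 and 27.0 CPM. The genotypes of all 3 overlapped. Rpl5 and Rpl11, which carry the 5S RNA into the large subunit and bind Mdm2 when free, were low. Rpl5 was at 0.970, 4.97 and 2.62 CPM in wild type, against 2.25, 3.76 and 1.70 CPM in knockout. Rpl11 was at 2.56, 0.199 and 1.24 CPM in wild type, against 7.13, 0.457 and 9.25 CPM in knockout, where sample 2 stayed within the wild-type range. Neither has a coding window of its own. Of 7 tested proteins around the exit of the nascent chain 4 were higher and 3 lower, and of 13 tested proteins of the small subunit head 5 were higher and 8 lower. Of 19 genes mutated in Diamond-Blackfan anaemia, a failure of red cell formation, 8 were higher and 11 lower (median -0.19 on the log2 scale). Among these Rpl15 was at 86.1, 3.42 and 21.1 CPM in wild type, against 6.56, 8.59 and 8.56 CPM in knockout, with wild-type sample 1 far above the rest (log2 fold change -2.22, SE 1.47, and -0.62 without that sample).

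Members on the X chromosome are Rps4x, Rpl10, Rpl36a and Rpl39. The samples differed in Xist, the RNA of the inactive X, which reached 349 CPM in knockout sample 1 and 412 CPM in knockout sample 3 but no more than 1.41 CPM elsewhere. Rps4x was at 16.7, 15.2 and 15.2 CPM in wild type, against 11.2, 23.5 and 16.8 CPM in knockout. Rpl10, which completes the large subunit in the cytoplasm, was at 38.9, 6.55 and 61.3 against 120, 34.6 and 56.2 CPM. Knockout sample 1 was thus the highest of the 6 for Rpl10 and the lowest for Rps4x. Rpl36a was at 0.617, 1.15 and 1.24 against 0.572, 11.9 and 2.85 CPM. Rpl39, of the exit tunnel, was at 54.0, 30.3 and 23.2 against 22.9, 13.6 and 15.4 CPM, all of the latter below wild type (log2 fold change -1.05, SE 1.07, and -0.62 without wild-type sample 1). Y-linked Kdm5d ran the other way, at 7.14, 155 and 15.5 CPM in wild type, against 0.0881, 19.6 and 0.0696 CPM in knockout. The samples high in Xist and lowest in Kdm5d were all knockout. This difference in sex-linked genes is thus partly mixed with genotype in every comparison given here. Whether it bears on the X-linked members or on other genes was not tested.

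Spread was smaller in members than in other genes of the same level. At a mean of 10 to 50 CPM the median coefficient of variation of 36 tested members was 41.3% in wild type and 32.5% in knockout, beside 98.4% and 67.8% for all 4474 tested genes of that level. For 56 mitochondrial ribosomal protein genes of that level it was 54.7% and 53.7%. These values describe the same 6 libraries and were not tested.

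Other genes of the ribosome and of translation were not called either. Of 4 ribosomal subunits outside the symbol rule all 4 were lower, none at an unadjusted p under 0.05, against a background of 1.67%. Rps3a1, of the small subunit platform, was at 56.5, 41.3 and 34.8 CPM in wild type, against 18.4, 19.1 and 14.8 CPM in knockout, without overlap (log2 fold change -1.34, SE 0.97). Rack1, the signalling scaffold on the small subunit head, was at 70.3, 133 and 104 against 120, 45.8 and 85.1 CPM. Of 6 tested paralogs, copies with a gene of their own, 1 was higher and 5 lower. Rps4l was at 49.3, 70.4 and 43.6 CPM in wild type, against 22.4, 21.9 and 28.2 CPM in knockout, without overlap, and Rps27rt at 68.8, 25.1 and 11.7 against 12.3, 11.5 and 9.32 CPM. Rps4l and Rps27rt resemble Rps4x and Rps27, so reads could be split between them and both are uncertain. The 273 pseudogene symbols of the family held 359 to 1104 reads per sample, 0.905% to 1.69% of the members' reads.

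Of 21 tested translation factors and other genes with TOP mRNAs 9 were higher and 12 lower. Eef1b2, of the exchange factor for elongation factor 1A, was at 124, 104 and 70.0 CPM in wild type, against 35.8, 55.9 and 28.8 CPM in knockout, without overlap. Its unadjusted p was 0.0677 by edgeR (adjusted p = 0.9999). Eif3k, a subunit of initiation factor 3, was at 307, 129 and 77.9 against 40.2, 98.2 and 70.4 CPM. Of 43 ribosome biogenesis factors 16 were higher and 27 lower (median -0.18 on the log2 scale), and 1 of the 43 was at an unadjusted p under 0.05, beside 2.84% of all genes tested. That gene, Efl1, the GTPase that helps to release Eif6 from the new large subunit, was at 5.73, 21.3 and 9.92 CPM in wild type, against 0.264, 0.0508 and 0.452 CPM in knockout (log2 fold change -5.55, SE 1.94, unadjusted p = 0.0220 and adjusted p = 0.9999 by edgeR). Rrp12, of small subunit export, was at 0.176, 9.53 and 16.8 against 0.660, 0.152 and 0.0348 CPM. Of 21 tested regulators, a list with Mtor, Larp1 and Myc, 10 were higher and 11 lower, and 1 of the 21 was at an unadjusted p under 0.05. Larp4, a polyA-binding protein, was at 176, 136 and 26.2 CPM in wild type, against 3.87, 31.1 and 23.5 CPM in knockout (unadjusted p = 0.0420 and adjusted p = 0.9999 by edgeR), and Zfp574 was at 4.85, 0.318 and 12.8 against 45.8, 20.5 and 13.8 CPM.

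The following 2 features, which the symbols did not select, were shared by many members. A snoRNA gene, whose product guides modification of ribosomal RNA, lay inside 29 of the 76 members on the same strand, 38.2%, beside 1.89% of 9158 tested protein-coding genes, and Rpl4 held 5 of them. A TOP-like start, here a C at the annotated RefSeq start (GRCm38.p6) followed by C or T to a run of at least 5 bases, was found in 13 of the 56 members with a promoter entry, 23.2%, beside 3.01% of 27025 genes. It was found in 7 of 34 large and 6 of 22 small subunit members. The starts of 5 of these 13 are shown as examples of the sequence through which translation of these mRNAs is known to be regulated. Each spans 10 bases before and 20 bases from the start, with the pyrimidine run in capitals.
Rps6: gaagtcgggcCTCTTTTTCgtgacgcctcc
Rpl28: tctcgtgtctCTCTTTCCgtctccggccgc
Rpl15: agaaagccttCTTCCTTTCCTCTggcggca
Rplp2: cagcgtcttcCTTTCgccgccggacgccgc
Rpl38: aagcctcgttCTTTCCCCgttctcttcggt
They lie at chr4:86857348-86857377 (minus strand), chr7:4792955-4792984 (plus), chr14:18270967-18270996 (minus), chr7:141447641-141447670 (plus) and chr11:114668570-114668599 (plus). Of these 5 genes Rps6 and Rpl28 were higher in each knockout sample, Rpl38 was lower in each, and Rpl15 and Rplp2 overlapped. Among the other members with such a start Rpl14 was lower in each knockout sample. Rpl35, Rpl35a, Rps10, Rps15a, Rps18, Rps21 and Rps27 overlapped. Over all genes tested 11.2% did not overlap, and a link between such starts and genotype was not tested. Annotated starts can be some bases off, so a missing run says only that these letters were not at the annotated base.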

How the data were processed

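The authors deposited unnormalized read counts per gene symbol for 6 samples. STAR 2.5.2b and featureCounts 1.5.1 are named in the submitters' processing notes beside CASAVA 1.8.2, Subread, limma 3.28.21 and the build GRCm38, without their roles. Their annotation, strand setting and treatment of reads with several matches were not given in the sources used here. ERCC spike-ins, 92 entries with 21 to 66 reads per sample, were left out. Genes were kept by filterByExpr (minimum count 10, minimum total 15), scaled by TMM and tested with edgeR 4.0.16 in R 4.3.3 by its 2-sided quasi-likelihood test, adjusted by Benjamini-Hochberg over all 10394 genes. The fit held genotype alone. Standard errors are the log2 fold change over the square root of its F statistic. DESeq2 1.42.0 and limma 3.58.1 were run beside it. The fit was also run on simulated counts, whose outcome is not given here. The common biological coefficient of variation, the spread between samples beyond counting error, was 1.27. At this spread the lower level of Lyl1 was itself not called, so the absence of calls does not show that members were unchanged. Levels are mean ± SD over 3 samples. Total counts were 12753945 to 27378614 per sample.

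Members, gene lists and tests were chosen with earlier results of these data known. Genes given in full are the 6 members of each subunit with the highest mean CPM, the 4 with the smallest p in each direction, the P stalk and X-linked members, the 3 of highest mean CPM with 10 reads or fewer in a sample, and the 2 genes with the smallest p of each other list. Some genes this rule gives are not reported here. Other members that are named were chosen after their values were seen. Shares and subunit ratios are scores over the members and carry no p. Positions, transcripts and 50-base windows come from GENCODE M21, which has all 76 members. Exact matches in annotated transcripts were counted, so copies outside the annotation are missed. The principal isoform with the longest coding sequence was used.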

Additional observations from a re-analysis of the deposited data

How the results depend on the processing

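No member was called under any of the 14 other settings of the fit, nor among members with at least 50% unique windows of the whole transcript, an alternative added after the data were seen, like the ratio per unique window. Over all genes, 8 were called without the filter and 52 by DESeq2. At a mean of 50 CPM or more 8 of 14 members were lower (median log2 fold change -0.0638), and 21 of the 30 members with at least 50% unique windows were lower, with a median of -0.33. The median was -0.10 with limma-voom and ran from -0.31 to -0.14 with 1 sample left out, and 43 to 51 members were then lower. The difference in log2 large to small ratio was -0.0796 between median members, 0.34 per unique window and -0.02 to 0.21 with 1 sample left out. The difference in share ran from -0.0327 to -0.00693 percentage points. The cause of these shifts was not tested.

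Of 35 named genes 7 changed the sign of their fold change in at least 1 setting. The sign turned for Rplp0 with RLE scaling (-0.00920), DESeq2 (-0.00956) and limma-voom (-0.0789), for Rpl10a with upper-quartile scaling (0.18), library size (0.12), no filter (0.0540), 50 CPM (0.12) and limma-voom (0.53), and for Rpl22 with limma-voom (1.78). With 1 sample left out Rplp0 ran from -0.15 to 0.18, Rpl10a from -0.36 to 0.91, Rpl41 from -0.12 to 0.42, Rps4x from -0.15 to 0.36, Rpl22 from -0.84 to 0.47, Rack1 from -0.65 to 0.0193 and Rpl5 from -0.55 to 0.53.

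With the replicate block 0 members were called and 42 were lower, and the fold changes were 0.26 for Rpl10a, 0.73 for Rpl22 and 0.0420 for Rpl5. The shared numbers gave no sign of pairing: deviations of same-numbered samples correlated at -0.002, -0.014 and -0.028 over 6523 genes. With 3 samples per genotype and a spread this wide, such values do not show that the samples were unpaired. Scaling to the ERCC reads was not run, since no sample reached 1000 of them.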
